A study of Homo sapiens with 27 samples.

Results

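The keratins KRT5, KRT6A, KRT7, KRT8, KRT13, KRT15, KRT18, KRT19, KRT20 and KRT23, a list of basal and simple epithelial keratins taken by gene symbol, were followed in 3 human colorectal cancer cell lines. Of these 10 genes, 7 were measured here (KRT5, KRT7, KRT8, KRT13, KRT18, KRT19 and KRT23) among 17687 genes in all, while KRT6A, KRT15 and KRT20 were not analysed here. Total RNA of LIM1215, SW48 and Caco2 cells was hybridised to 27 Affymetrix whole-transcript arrays, with 3 arrays for each of 3 states of each line. Withdrawal cells were resistant cells kept for 20 further cycles with no challenge. Resistant cells had outlived 20 rounds in which NK-CD16 cells (natural killer cells with the Fc receptor CD16) were added together with cetuximab, an antibody to EGFR, at 1 µg per ml. Parental cells were the original, unchallenged lines. Per the labels the parental cells of each line had been grown from a single clone, so the groups of a line stand for 1 clonal origin. All LIM1215 groups grew in medium with hydrocortisone and insulin, which the media of SW48 and Caco2 lacked in the labels. The labels do not say that replicates were separate cultures, so p-values measure only the spread between these samples, which may be technical.

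Keratins are the intermediate filament proteins of epithelial cells. A filament is built from pairs of an acidic type I keratin (KRT13, KRT18, KRT19 and KRT23 here) and a basic type II keratin (KRT5, KRT7 and KRT8 here), and it is anchored at desmosomes and hemidesmosomes by plakin proteins. Simple epithelia such as the lining of the colon are known for KRT8, KRT18, KRT19 and KRT20, whereas KRT5 with KRT14 marks the basal layer of stratified epithelia and KRT13 the upper layers of stratified mucosa.

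KRT5 and KRT8 were the measured keratins with a promoter sequence at hand (RefSeq, GRCh38.p14), and both rose in resistant SW48 cells, so their promoters are shown to set their letters side by side. Each window runs from 250 bases before to 50 bases after the gene's start, 5′ to 3′ on the gene's strand. The KRT5 window is chr12:52520345-52520644 (minus strand) and the KRT8 window is chr12:52926420-52926719 (minus strand). Capitals mark matches to CACCC or its reverse complement.
KRT5: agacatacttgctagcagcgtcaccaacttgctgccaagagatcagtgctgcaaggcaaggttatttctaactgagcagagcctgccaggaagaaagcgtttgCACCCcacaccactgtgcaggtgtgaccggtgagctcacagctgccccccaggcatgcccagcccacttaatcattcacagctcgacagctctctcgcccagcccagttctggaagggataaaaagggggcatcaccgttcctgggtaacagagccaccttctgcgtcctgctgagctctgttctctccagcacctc
KRT8: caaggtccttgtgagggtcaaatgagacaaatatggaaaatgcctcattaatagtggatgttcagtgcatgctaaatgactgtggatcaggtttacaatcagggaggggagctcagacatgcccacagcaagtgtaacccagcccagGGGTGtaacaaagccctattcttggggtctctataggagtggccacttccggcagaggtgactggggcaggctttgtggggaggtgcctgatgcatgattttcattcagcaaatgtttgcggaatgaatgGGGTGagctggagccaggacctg
Motifs were searched on both strands: TGANTCA (the AP-1 site), TTCNNNGAA (the STAT site), GGGCGG (the GC box), CACCC (the core of the KLF site) and CCANNTGG (an E-box form). KRT5 held 1 CACCC match, its first base at -147 from the start, and KRT8 held 2 on the other strand, at -103 and 28. CACCC was found in 58.9% of the 27305 promoter windows of this length. The other motifs, which had no match in these windows, were found in 7.8% (TGANTCA), 7.9% (TTCNNNGAA), 44.6% (GGGCGG) and 10.0% (CCANNTGG) of them. In the gene order of the same RefSeq annotation KRT8 and KRT18 are neighbours, and KRT7 lies next to KRT80.

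The values are given as deposited and were read as log2 intensities, so a difference of 1 is a doubling. The median gene of an array lay at 7.904 to 8.052 in LIM1215, at 6.432 to 6.542 in SW48 and at 6.989 to 7.081 in Caco2, so levels were compared only between states of a line. Apart from the highest value of an array and the rank of KRT8 on LIM1215 arrays, no gene's level was set against another's. That highest value was 16.96 to 17.14 in LIM1215, 17.96 to 18.19 in SW48 and 17.95 to 18.18 in Caco2. Whether differences of genes near it, such as KRT8, are compressed was not tested. A group mean under the 95th percentile of its arrays' 612 negative controls is called near background. Of colorectal epithelial markers, 10 of 10 were above background in LIM1215 cells, 6 of 10 in Caco2 cells and 3 to 4 of 10 in SW48 cells, where CDH17, VIL1, LGALS4, GPA33, TSPAN8 and PHGR1 were near background in every state. Of 7 fibroblast markers, at most 1 was above background in any group. Resistant cells had been cultured with NK cells, and 9 of 15 NK cell and leukocyte markers were above background in resistant LIM1215 cells, 7 in resistant Caco2 cells and 2 in resistant SW48 cells. In parental and withdrawal cells none was in LIM1215 or Caco2 and 1 was in SW48. In these bulk RNA samples, fewer cells of a type and less RNA per cell cannot be told apart. KRT8, KRT18 and KRT19 have processed pseudogenes, and KRT14, KRT16 and KRT6C close paralogs, with which probes may share signal.

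The library labelled LIM1215 parental replicate 3 stood apart. Across all genes its Pearson's r was 0.98709 and 0.98721 with the other parental replicates, which had r = 0.99682 with each other, and 0.99169 to 0.99225 with the withdrawal arrays. In the other 8 groups r between replicates was 0.99465 to 0.99646. The keratin counts against parental LIM1215 cells and the KRT7 and KRT80 differences are therefore given with and without it, as are several other values.

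SW48 was the line in which most of these keratins differed between states. In resistant against parental SW48 cells, 6 of the 7 measured keratins passed an adjusted p under 0.05, 5 of them higher and 1 lower, where 22.7% of all genes passed in either direction (10.9% higher and 11.8% lower). KRT5, KRT7, KRT8 and KRT18 were higher with at least 1 group above background, KRT23 was higher with both groups near background, and KRT19 was lower. With single arrays left out, 4 to 6 of the 7 passed, while 3364 to 3530 of the 17687 genes did. The median difference was 0.82 for the 7 keratins and 0.00 for all genes. Resistant and parental arrays had separate ranges for 5 of the 7, against 35.5% of all genes.

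KRT5, the basal type II keratin, read 2.96, 3.47 and 3.69 in withdrawal cells, 8.60, 8.85 and 7.87 in resistant cells and 3.04, 3.01 and 2.45 in parental cells of SW48. It was above background on every resistant array and near background on all withdrawal and parental arrays. Its difference was 5.61 for resistant minus parental cells (SE 0.311, adjusted p = 3.1e-12), which is at least 3.29-fold over the background of parental arrays. For withdrawal minus resistant cells it was -5.07 (SE 0.311, adjusted p = 2.15e-11, at least 2.94-fold lower). Withdrawal and parental cells were not distinguished (0.54, 95% interval -0.10 to 1.19, adjusted p = 0.439), and both lay below background, so only the resistant level is a measured one.

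KRT18, the main type I keratin of simple epithelia, read 14.56, 14.47 and 14.31 in withdrawal cells, 15.53, 15.54 and 15.50 in resistant cells and 13.29, 13.30 and 13.28 in parental cells of SW48. The groups were all separate, with resistant cells highest, withdrawal cells between and parental cells lowest. KRT18 was 4.72-fold higher in resistant than in parental cells (log2 difference 2.24, SE 0.0995, adjusted p = 6.73e-14). It was 2.24-fold higher in withdrawal than in parental cells (1.16, SE 0.0995, adjusted p = 1.22e-07) and 2.11-fold lower in withdrawal than in resistant cells (-1.08, adjusted p = 2.13e-08).

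KRT8, the type II partner of KRT18, kept the same order of states in SW48 with smaller steps. It read 16.59, 16.63 and 16.62 in withdrawal cells, 16.94, 16.95 and 16.98 in resistant cells and 16.09, 16.17 and 16.16 in parental cells. The difference was 0.82 for resistant minus parental cells (SE 0.0811, 1.76-fold, adjusted p = 6.65e-08), 0.47 for withdrawal minus parental cells (1.39-fold, adjusted p = 0.00109) and -0.35 for withdrawal minus resistant cells (1.27-fold lower, adjusted p = 0.00272).

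KRT19, a type I keratin of simple epithelia, went the other way in SW48. It read 13.26, 13.10 and 12.62 in withdrawal cells, 11.70, 11.75 and 11.42 in resistant cells and 12.99, 12.82 and 12.87 in parental cells. Every resistant array was below every array of the other states, and withdrawal and parental arrays overlapped. KRT19 was 2.41-fold lower in resistant than in parental cells (-1.27, SE 0.139, adjusted p = 2.81e-07) and 2.59-fold higher in withdrawal than in resistant cells (1.37, SE 0.139, adjusted p = 8.8e-08). The withdrawal minus parental difference was 0.10 (95% interval -0.18 to 0.39, adjusted p = 0.822).

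KRT7, a type II keratin of simple and glandular epithelia, read 6.14, 6.26 and 6.26 in withdrawal cells, 7.22, 8.13 and 7.49 in resistant cells and 6.52, 6.19 and 6.70 in parental cells of SW48. Resistant arrays lay above all others and were the ones above background. The resistant minus parental difference was 1.14 (SE 0.360, at least 1.86-fold, adjusted p = 0.0231). That SE is shared with the arrays of the other lines, LIM1215 parental replicate 3 among them. The SD of KRT7 was 1.055 in parental LIM1215 cells, 0.26 in parental SW48 cells and 0.46 in resistant SW48 cells. The SW48 difference stayed at 0.89 to 1.34 when single arrays were left out, but its side of the threshold depended on the arrays kept. It did not pass without parental replicate 1 (adjusted p = 0.0503), parental replicate 2 (0.0937) or resistant replicate 2 (0.133). Withdrawal minus resistant was -1.39 (adjusted p = 0.00597, at least 1.66-fold lower). KRT23, a type I keratin, differed by 0.74 between resistant and parental cells (adjusted p = 0.0473), but it was near background in every SW48 group, at 2.53 to 2.77 in withdrawal, 2.69 to 4.31 in resistant and 2.27 to 3.05 in parental arrays. KRT13 was near background in all 9 groups of the study, with group means of 3.25 to 4.30, and passed in no comparison.

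After withdrawal, 2 of the 7 keratins, KRT8 and KRT18, stayed higher than in parental SW48 cells and none was lower, where 4.08% of all genes passed in either direction (1.78% higher and 2.3% lower). Withdrawal and parental arrays had separate ranges for 2 of the 7 keratins and for 22.1% of all genes. In withdrawal against resistant cells 1 of the 7 (KRT19) was higher and 4 (KRT5, KRT7, KRT8 and KRT18) were lower, against 22.2% of all genes in either direction (11.1% higher and 11.1% lower). The summed level of the 15 NK cell and leukocyte markers was 9.54 to 9.72 in withdrawal, 9.21 to 10.03 in resistant and 8.28 to 8.53 in parental SW48 cells, and those above background were PTPRC in withdrawal, NCAM1 and GZMA in resistant and PTPRC in parental cells. Their part in these results was not tested.

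Of 38 other keratins measured, 3 were above background in a state of SW48: KRT14, KRT16 and KRT80. KRT14, the type I partner of KRT5 in basal cells, was lower where KRT5 was higher. It read 10.82, 10.82 and 10.75 in withdrawal cells, 6.43, 6.90 and 6.66 in resistant cells and 10.17, 10.36 and 10.22 in parental cells. Resistant arrays were near background, and KRT14 was at least 9.01-fold lower there than in parental cells (-3.59, SE 0.179, adjusted p = 4.51e-13). Withdrawal cells were at least 13.1-fold above resistant cells (4.13, SE 0.179, adjusted p = 4.59e-14). KRT16, a type I keratin of stressed and proliferating stratified epithelium, read 16.23, 16.24 and 16.24 in withdrawal cells, 14.49, 14.35 and 14.48 in resistant cells and 15.73, 15.78 and 15.86 in parental cells. It was 2.55-fold lower in resistant than in parental cells (-1.35, SE 0.135, adjusted p = 6.99e-08) and 3.48-fold higher in withdrawal than in resistant cells (1.80, adjusted p = 6.4e-10). Both genes therefore had their lowest level in resistant cells, as KRT19 did. KRT80, a type II keratin, read 11.95, 11.97 and 11.94 in withdrawal cells, 12.09, 12.26 and 12.17 in resistant cells and 11.04, 11.11 and 11.07 in parental cells. It was 2.14-fold higher in resistant than in parental cells (1.10, SE 0.262, adjusted p = 0.00303), and the withdrawal minus parental difference was 0.88 (adjusted p = 0.0614). All withdrawal arrays lay above the parental ones, and the SE is shared with the arrays of the other lines. Over the 38 other keratins, 2 passed higher and 2 lower in resistant against parental cells, where 22.7% of all genes passed. In withdrawal against parental cells 0 passed in this limma fit (6 had an unadjusted p under 0.05), where 4.08% of all genes passed. Alternative settings of the fit called 0 to 2 of the 38 in that comparison. The median difference of the 38 was 0.01 in the first comparison and 0.09 in the second.

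**Figure D1:**
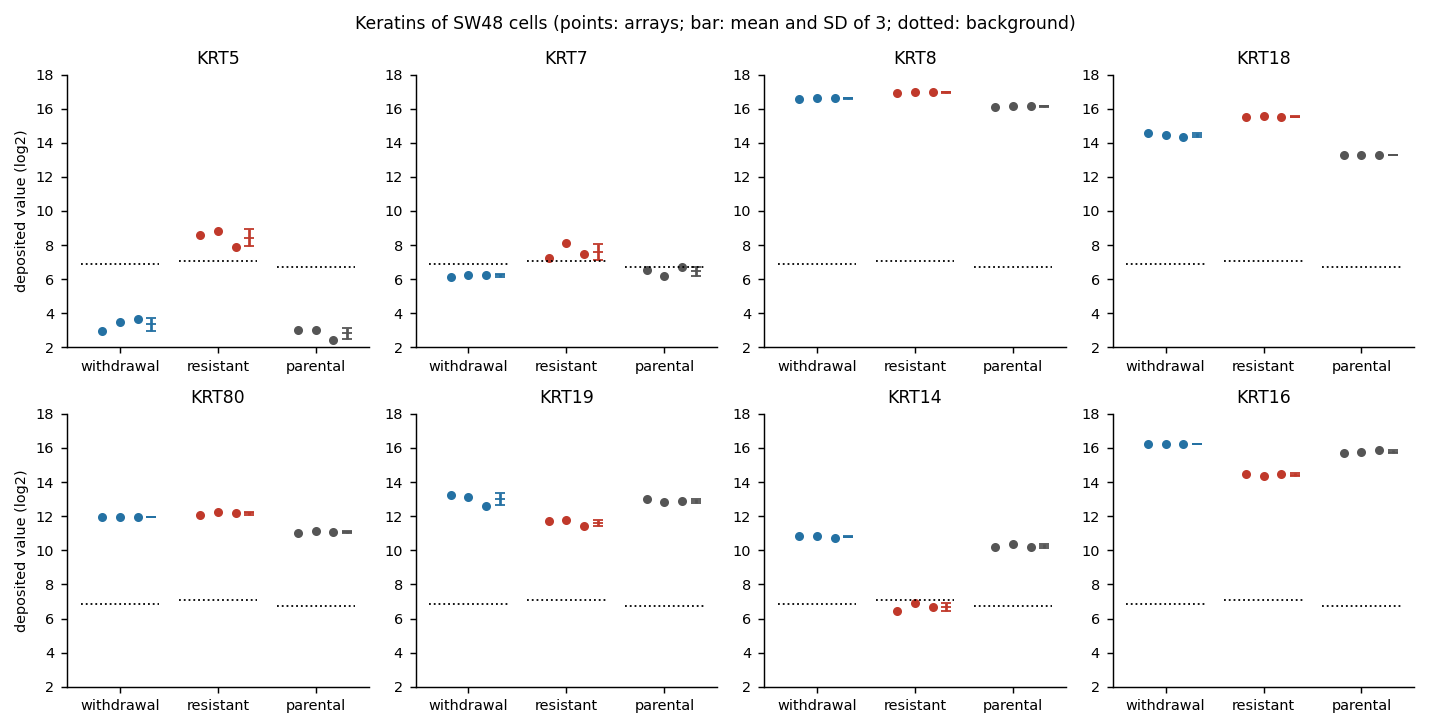
Deposited log2 values (vertical axis) of 8 keratins in withdrawal, resistant and parental SW48 cells; dots are arrays, bars the mean and SD of 3 arrays and dotted lines the background of each group. KRT5, KRT7, KRT8, KRT18 and KRT80 are highest in resistant cells, and KRT19, KRT14 and KRT16 are lowest there.

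Desmosome and plakin genes, which anchor keratin filaments, were mostly lower in resistant SW48 cells. Of 13 measured, 1 rose and 8 fell against parental cells, 7 of the 8 with a group above background, where 10.9% of all genes passed higher and 11.8% lower. Their median difference was -0.64, with 0.00 for all genes. The riser was PPL, a plakin of desmosomes, at 8.96, 8.69 and 8.88 in resistant cells and 6.56, 5.86 and 6.75 in parental cells (2.45, SE 0.210, at least 4.36-fold, adjusted p = 5.96e-09). DST, whose epithelial form ties keratins to hemidesmosomes, was at 6.58, 6.36 and 7.18 in resistant cells and 10.84, 10.26 and 10.90 in parental cells (-3.96, SE 0.295, at least 11.6-fold lower, adjusted p = 5.64e-10). PPL was near background in parental cells, and DST had 1 of its 3 resistant arrays above background with the group's mean below it. PKP3, a desmosomal plaque protein, was 2.28-fold lower in resistant than in parental cells (-1.19, SE 0.215, adjusted p = 0.00021). DSP, the plakin that binds keratins at desmosomes, fell by 0.70 (adjusted p = 9.68e-06), DSC2, a desmosomal cadherin, by 0.84 (adjusted p = 5.69e-05) and PLEC, a plakin that links filaments to other structures, by 0.84 (adjusted p = 0.000729). JUP, a plaque protein, differed by -0.05 (95% interval -0.29 to 0.19). In withdrawal against parental SW48 cells 1 of the 13 rose and 2 fell, where 1.78% of all genes passed higher and 2.3% lower. DSG3, a desmosomal cadherin of stratified epithelia, read 8.23, 8.56 and 7.76 in withdrawal cells and was near background in the other states (3.39 against parental cells, SE 0.257, at least 2.75-fold, adjusted p = 1.98e-08). PKP2, a plaque protein of simple epithelia, was 2.08-fold lower in withdrawal than in parental cells (-1.05, SE 0.0888, adjusted p = 1.2e-07) and also fell by 0.64 in resistant cells.

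**Figure D2:**
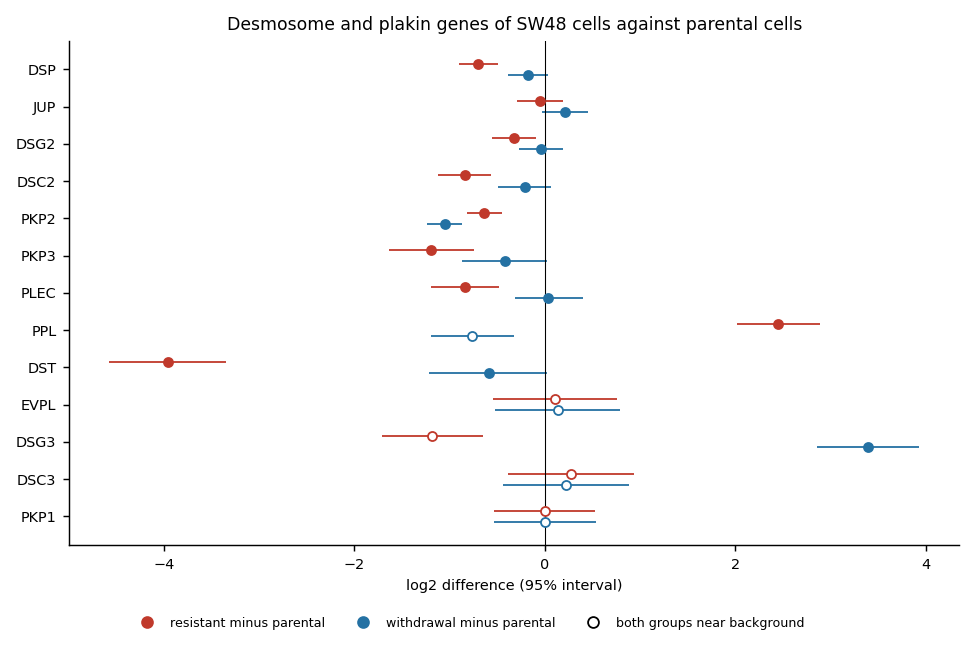
Log2 differences from parental cells (horizontal axis, bars 95% intervals) of 13 desmosome and plakin genes in resistant (red) and withdrawal (blue) SW48 cells; open symbols mark comparisons with both groups near background. PPL is the one gene higher in resistant cells past the threshold (2.45), DST is the lowest (-3.96), and DSG3 is high after withdrawal (3.39).

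Genes of squamous differentiation showed 1 change of 16 in resistant against parental SW48 cells, where 22.7% of all genes passed. Only 2 of the 16 had a group above background there, so the other genes had no measured level in either state. S100A2, a calcium-binding protein of basal keratinocytes, read 12.84, 12.70 and 12.40 in withdrawal cells, 15.26, 15.45 and 15.34 in resistant cells and 12.68, 12.67 and 12.23 in parental cells. It was 7.07-fold higher in resistant than in parental cells (2.82, SE 0.189, adjusted p = 8.94e-11) and 6.50-fold lower in withdrawal than in resistant cells (-2.70). Among 17 epithelial transcription factors, 5 rose and 4 fell in resistant against parental cells (3 and 3 of them with a group above background), where 10.9% of all genes passed higher and 11.8% lower, with a median difference of 0.09. OVOL1, a zinc finger factor of epithelial differentiation, was 2.10-fold higher (1.07, SE 0.173, adjusted p = 5.8e-05) and GRHL3, a grainyhead factor of the epidermal barrier, 1.74-fold higher (0.80, adjusted p = 0.00926). CDX2, the homeobox factor of intestinal identity, was 2.07-fold lower (-1.05, SE 0.108, adjusted p = 1.2e-07), at 11.72, 11.99 and 12.01 in resistant cells and 12.88, 12.98 and 13.01 in parental cells. KLF5, a Krüppel-like factor of crypt cells, was 1.74-fold lower (-0.80, SE 0.115). In withdrawal against parental cells 1 of the 17 rose and 4 fell, where 1.78% of all genes passed higher and 2.3% lower. GRHL1, another grainyhead factor, was the higher one (1.14, SE 0.263, at least 1.39-fold, adjusted p = 0.0137), near background in parental cells, and it did not pass without parental replicate 1 (adjusted p = 0.0793), parental replicate 2 (0.0681) or withdrawal replicate 3 (0.0651). EHF, an ETS factor, was 3.56-fold lower than in parental cells (-1.83, SE 0.281, adjusted p = 0.000289) and GRHL3 2.84-fold lower (-1.51, SE 0.220, adjusted p = 0.000166).

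In LIM1215, none of the 7 keratins passed in resistant against parental cells in the limma fit, where 10.8% of all genes did (5.42% higher and 5.39% lower). KRT7 was the 1 keratin with an unadjusted p under 0.05. Resistant and parental arrays had separate ranges for 4 of the 7 keratins and for 23.7% of all genes. In withdrawal against parental cells 1 passed higher (KRT7) and 1 lower (KRT23), against 21.1% of all genes (9.89% higher and 11.2% lower). KRT7 also passed higher and KRT23 lower in withdrawal against resistant cells, against 27.9% of all genes (13.6% higher and 14.4% lower). Separate ranges were found for 1 of the 7 keratins and 31.6% of all genes in the comparison with parental cells, and for 4 of 7 and 46% in that with resistant cells. Without parental replicate 3 the counts against parental cells were again 0 in resistant cells and 1 higher and 1 lower in withdrawal cells, where 14.7% and 28.4% of all genes passed.

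KRT7 read 10.50, 10.25 and 9.97 in withdrawal cells, 7.95, 8.04 and 7.47 in resistant cells and 8.09, 8.35 and 10.03 in parental cells of LIM1215, the last being replicate 3. That array lay within the range of the withdrawal cells, and the other parental arrays lay above the resistant ones, of which replicate 2 was near background. Withdrawal cells were 5.35-fold above resistant cells (2.42, SE 0.360, adjusted p = 1.89e-05), a comparison that does not use parental arrays. Withdrawal minus parental was 1.42 with all arrays (SE 0.360, 2.67-fold, adjusted p = 0.00653) and 2.02 without parental replicate 3 (SE 0.288, adjusted p = 1.16e-05). It did not pass without parental replicate 1 (1.05, adjusted p = 0.067) or parental replicate 2 (1.18, adjusted p = 0.0531). Nor did it pass in the limma fit on the LIM1215 arrays alone (1.42, adjusted p = 0.0712). Resistant minus parental was -1.0 with all arrays (adjusted p = 0.0815), -0.40 without parental replicate 3 (adjusted p = 0.442) and -1.37 without parental replicate 1 (adjusted p = 0.0189). KRT7 was thus highest in withdrawal cells of LIM1215, and the resistant minus parental difference did not pass with all arrays.

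KRT80, the gene next to KRT7 on chromosome 12, had the same highest state in LIM1215. It read 13.74, 13.72 and 13.77 in withdrawal cells, 9.62, 10.53 and 9.91 in resistant cells and 11.92, 11.84 and 13.11 in parental cells, again with parental replicate 3 the highest of its group. KRT80 was 13.2-fold higher in withdrawal than in resistant cells (3.73, SE 0.262, adjusted p = 2.68e-10). Against parental cells it was 4.83-fold lower in resistant cells (-2.27, SE 0.262, adjusted p = 1.04e-06) and 2.74-fold higher in withdrawal cells (1.46, SE 0.262, adjusted p = 0.000364). Without parental replicate 3 these differences were -1.86 (adjusted p = 2e-06) and 1.87 (adjusted p = 1.09e-06). It was the only one of the 38 other keratins to pass with a group above background in a LIM1215 comparison.

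The interferon-induced genes IFIT1 and ISG15 also set parental replicate 3 apart. IFIT1 read 13.16 in it and 6.17 and 6.82 in the other parental arrays, and ISG15 read 11.53 against 7.44 and 7.81. The summed level of 9 interferon genes was 14.68 to 14.72 in withdrawal, 16.27 to 16.45 in resistant and 13.94 to 17.71 in parental LIM1215 cells. TFAP2C, an AP-2 transcription factor, read 11.81, 11.65 and 11.82 in withdrawal cells, 9.65, 9.71 and 9.60 in resistant cells and 9.49, 9.62 and 11.23 in parental cells. It was 3.13-fold higher in withdrawal than in parental cells (1.65, SE 0.374, adjusted p = 0.0028) and differed by 2.21 without parental replicate 3. What sets this library apart was not tested.

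**Figure D3:**
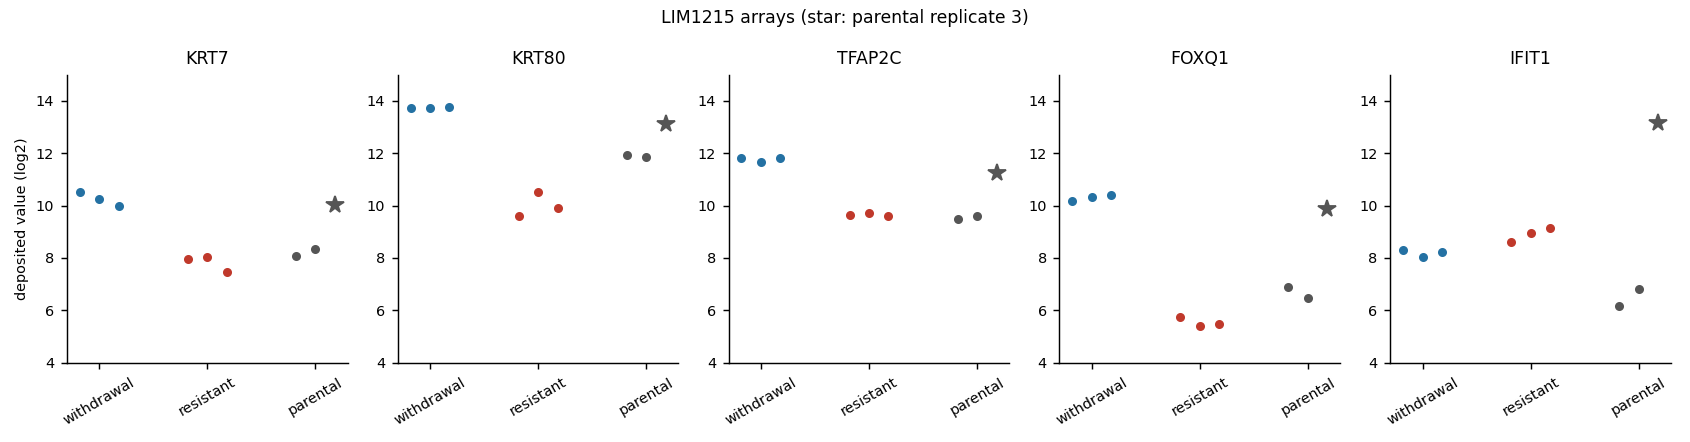
Deposited log2 values (vertical axis) of KRT7, KRT80, TFAP2C, FOXQ1 and IFIT1 in withdrawal, resistant and parental LIM1215 cells; dots are arrays and the star is parental replicate 3. KRT7 reads 10.03 at the star and 8.09 and 8.35 at the other parental arrays, while IFIT1 reads 13.16 there, above every other LIM1215 array.

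KRT8, KRT18 and KRT19 were above background on every LIM1215 array and none passed in any comparison. KRT8 read 16.96 to 17.03 in withdrawal cells, 16.93 to 16.99 in resistant cells and 17.01 to 17.14 in parental cells. KRT8 ranked 1 to 2 among all genes on LIM1215 arrays, so the highest gene value there (16.96 to 17.14) is in part its own reading. Whether a change of KRT8 is understated there was not tested. KRT18 read 16.41 to 16.46 in withdrawal cells, 16.30 to 16.38 in resistant cells and 16.41 to 16.57 in parental cells. KRT19 read 15.49 to 15.56 in withdrawal cells, 15.45 to 15.49 in resistant cells and 15.35 to 15.78 in parental cells. The 95% intervals for resistant minus parental cells were -0.29 to 0.04 for KRT8, -0.34 to 0.07 for KRT18 and -0.32 to 0.26 for KRT19. Without parental replicate 3 the differences were -0.10, -0.09 and 0.11. KRT5 was near background in all LIM1215 groups (means of 2.64 to 2.82), and so was KRT23, whose calls there (-0.98 for withdrawal minus parental cells, adjusted p = 0.0103, and -1.38 for withdrawal minus resistant cells, adjusted p = 0.000357) compare values below background. Without parental replicate 3 the first of these calls was -1.04 (adjusted p = 0.0119). Of the 15 NK cell and leukocyte markers, whose summed level was 8.42 to 8.53 in withdrawal, 12.60 to 12.89 in resistant and 8.48 to 8.78 in parental cells, none was above background in withdrawal or parental cells.

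In Caco2, none of the 7 keratins passed in resistant against parental cells in the limma fit, where 27.4% of all genes did (12.9% higher and 14.5% lower), and none had an unadjusted p under 0.05. KRT23 passed higher in withdrawal cells against both other states. That is 1 of 7 in withdrawal against parental cells, where 5.28% of all genes passed (2.73% higher and 2.54% lower), and 1 of 7 in withdrawal against resistant cells, where 24.7% passed (12.1% higher and 12.5% lower). Separate ranges were found for 2 of 7 keratins and 23.4% of all genes in the first of these comparisons, and for 4 of 7 and 38.9% in the second. KRT23 read 10.40, 10.11 and 10.19 in withdrawal cells, 8.10, 8.12 and 8.10 in resistant cells and 8.47, 8.78 and 8.62 in parental cells. The groups were all separate, with withdrawal cells highest and resistant cells lowest. KRT23 was 3.05-fold higher in withdrawal than in parental cells (1.61, SE 0.265, adjusted p = 0.00043) and 4.36-fold higher than in resistant cells (2.12, SE 0.265, adjusted p = 1.42e-06). The resistant minus parental difference of -0.51 (95% interval -1.06 to 0.04) had an adjusted p of 0.172 in the fit on all arrays and of 0.0127 in a fit on the 9 Caco2 arrays alone, where the gene's spread was not shared with the other lines.

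KRT8, KRT18 and KRT19 differed by at most 0.21 in size between any states of Caco2. KRT8 read 17.09 to 17.11 in withdrawal cells, 17.15 to 17.26 in resistant cells and 17.07 to 17.14 in parental cells. KRT18 read 15.36 to 15.58 in withdrawal, 15.48 to 15.78 in resistant and 15.55 to 15.63 in parental cells. KRT19 read 15.20 to 15.27 in withdrawal, 15.33 to 15.48 in resistant and 15.15 to 15.31 in parental cells. The resistant arrays of KRT8 and KRT19 lay above the parental ones, with 95% intervals of -0.06 to 0.28 and -0.08 to 0.50 for the differences. Separate ranges of resistant and parental arrays were found for 3 of the 7 keratins and 39.9% of all genes. KRT5, KRT7 and KRT13 were near background in every Caco2 group. The NK cell and leukocyte markers summed to 7.63 to 7.84 in withdrawal, 11.67 to 12.15 in resistant and 7.84 to 7.97 in parental cells, and none was above background in withdrawal or parental cells. Whether such cells bear on the Caco2 values was not tested.

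**Figure D4:**
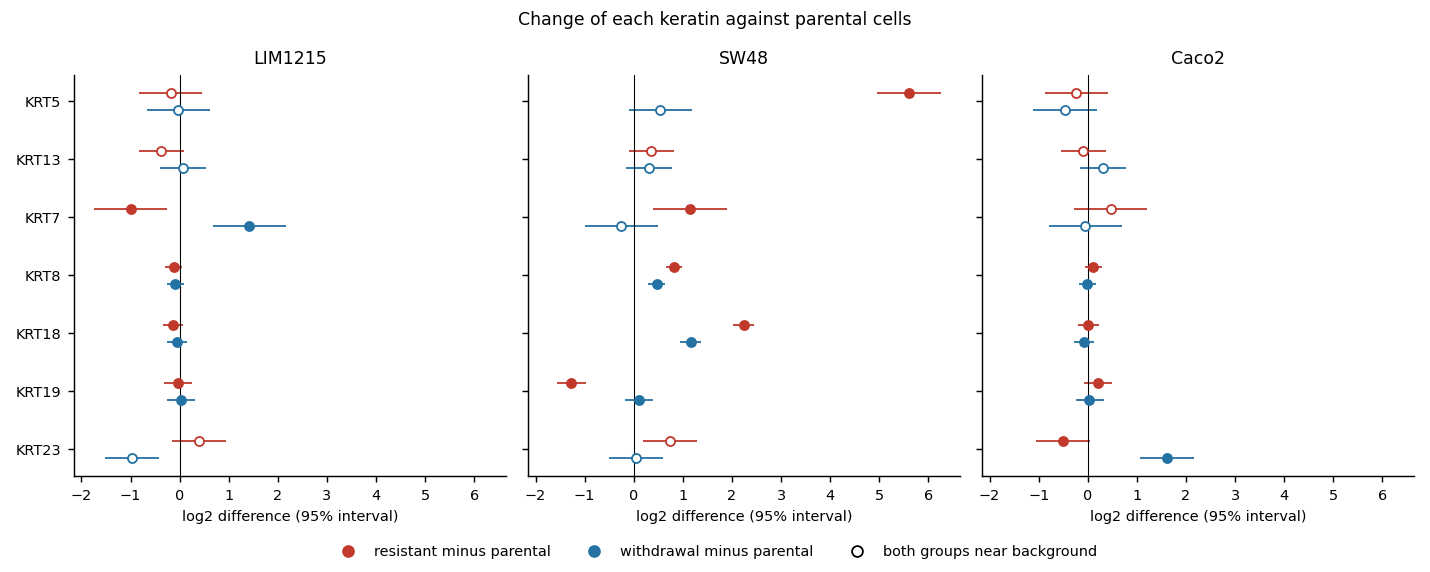
Log2 differences from parental cells (horizontal axis, bars 95% intervals) of the 7 keratins in resistant (red) and withdrawal (blue) cells of each line, all arrays included; open symbols mark comparisons with both groups near background. KRT5 (5.61) and KRT18 (2.24) in resistant SW48 cells and KRT23 (1.61) in withdrawal Caco2 cells stand to the right, and KRT19 in resistant SW48 cells (-1.27) to the left.

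Tests of the changes themselves between lines set SW48 apart. For resistant minus parental cells, 5 of the 7 keratins differed between SW48 and LIM1215, 4 with a higher and 1 with a lower change in SW48 (18.3% of all genes passed, 8.67% higher and 9.6% lower), and likewise 5 between SW48 and Caco2 (25.9% of all genes, 12.9% higher and 13% lower). KRT18 changed by 2.38 more in SW48 than in LIM1215 (SE 0.141, adjusted p = 1.83e-11) and by 2.23 more than in Caco2 (SE 0.141, adjusted p = 5.22e-11). KRT19 changed by -1.24 against LIM1215 (adjusted p = 6.74e-05) and -1.48 against Caco2 (adjusted p = 4.19e-06). Without LIM1215 parental replicate 3 the differences from LIM1215 were 2.33 for KRT18 and -1.38 for KRT19. Between Caco2 and LIM1215 only KRT7 differed (1 of 7, with 21.3% of all genes, 10.8% higher and 10.4% lower), by 1.47 (adjusted p = 0.0426), and without LIM1215 parental replicate 3 this was 0.86 (adjusted p = 0.116). That KRT7 difference also did not pass in the fit on those lines alone (adjusted p = 0.0809) or without any of several other single arrays. For withdrawal minus parental cells, KRT18 again changed more in SW48, by 1.21 against LIM1215 and 1.24 against Caco2, and KRT23 changed by 2.59 more in Caco2 than in LIM1215 (SE 0.375, adjusted p = 8.41e-05). KRT23 was near background in every LIM1215 group (LIM1215 change -0.98). In the withdrawal comparisons 3 of 7 passed for SW48 against LIM1215 (13.3% of all genes, 6.73% higher and 6.59% lower), 3 for SW48 against Caco2 (5.31%, 2.46% higher and 2.85% lower) and 1 for Caco2 against LIM1215 (13.4%, 6.76% higher and 6.61% lower). The KRT7 difference between SW48 and LIM1215 among these, -1.67 (adjusted p = 0.0321), did not pass in the fit on those lines alone (adjusted p = 0.0544) or without LIM1215 parental replicate 1 (-1.30, adjusted p = 0.112). Nor did it pass without any SW48 withdrawal replicate or several other single arrays. The lines share no arrays, but each pair of changes within a line shares its parental arrays. The comparisons of SW48 with LIM1215 and with Caco2 use the same SW48 arrays, so they are not independent.

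Over the 27 arrays, with each gene centred on its mean in each line, the gene most like KRT8 was KRT18 (Pearson's r = 0.967), and the next was CRABP2, a retinoic acid carrier (r = 0.926 with KRT8 and 0.949 with KRT18). KRT5 was most like NAPG, a vesicle fusion factor (r = 0.968), and KLK5, a serine protease of the epidermis (r = 0.966). KRT5 was above background in 1 of the 9 groups, resistant SW48 cells, so its r values rest on values near background in all other groups. KLK5 read 8.56, 8.54 and 7.84 in withdrawal, 13.16, 13.33 and 13.29 in resistant and 8.16, 8.05 and 7.84 in parental SW48 cells. KRT7 was most like FOXQ1, a forkhead factor (r = 0.918), and PARD6B, a polarity protein (r = 0.908). FOXQ1 read 10.18, 10.34 and 10.39 in withdrawal, 5.73, 5.39 and 5.48 in resistant and 6.91, 6.49 and 9.87 in parental LIM1215 cells, with the last value in parental replicate 3. KRT19 was most like SH3RF2 (r = 0.942) and LGALS3, a galectin (r = 0.936), and KRT23 was most like CETN2, a centrin (r = 0.822), and LYN, a SRC family kinase (r = 0.805). The arrays of a group share their state, so these values describe 9 groups rather than 27 independent points. By rank the likeness of KRT8 and KRT18 was lower (Spearman's rho = 0.697), as was that of CRABP2 with KRT8 (0.579) and with KRT18 (0.537).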

How the data were processed

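Values of 27 arrays of 3 lines in 3 states were used as deposited, 1 value per probe set and array. Their unit, software and normalization were not given in the sources used here. The deposited values were read as log2 intensities from their range. Sense-strand cDNA was made from 250 ng of RNA, per the labels' protocols. Of 24351 probe sets, 2903 were controls, and 17709 of the 21448 transcript probe sets had 1 gene symbol in the platform's naming table, 3739 were not listed there and none had several. Where a gene had more than 1 probe set (20 genes) the brightest stood for it, which left 17687 genes. No dim gene was removed.

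A group-means model of the 27 arrays was fitted in limma 3.58.1 in R 4.3.3 (18 residual and 4.12 prior degrees of freedom), with 9 contrasts within lines and 6 between lines, two-sided tests and Benjamini-Hochberg adjustment over all genes in each contrast. The threshold was an adjusted p of 0.05. Errors beside differences are standard errors of that fit, and folds against a group near background are bounds over the 95th percentile of its negative controls. The script was tested on simulated data. Arrays give no molecule counts, so their number limits the precision.

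The keratins, the other gene lists, the motifs and the naming rule were chosen with earlier results of these data known. Up to 3 other keratins per contrast and 2 genes per direction of each list were eligible to be named, among called genes with non-overlapping arrays and a group above background; others named for their place in the desmosome list (DSP, DSC2, PLEC and JUP in SW48) were chosen after their values were seen. Alternatives were quantile normalization within lines, a filter on dim genes, eBayes with trend and robust settings, fits on the lines compared only, a replicate block, the mean of probe sets, and leaving out each array. Background correction and slide were not varied.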

Additional observations from a re-analysis of the deposited data

Results flagged for a closer look

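Changes that differed between lines by the interaction contrast of the limma fit, at an adjusted p under 0.05 and with a group above background, are given as the log2 change of the first line minus that of the other. For resistant minus parental cells, SW48 minus LIM1215 gave 5.79 for KRT5 (SE 0.440), 2.15 for KRT7 (SE 0.509, and 1.54 without LIM1215 parental replicate 3), 0.94 for KRT8 (SE 0.115), 2.38 for KRT18 (SE 0.141) and -1.24 for KRT19 (SE 0.196). SW48 minus Caco2 gave 5.85 for KRT5 (SE 0.440), 0.70 for KRT8 (SE 0.115), 2.23 for KRT18 (SE 0.141), -1.48 for KRT19 (SE 0.196) and 1.25 for KRT23 (SE 0.375), the last with KRT23 near background in SW48 and with values of 0.76 (without SW48 resistant replicate 1) to 1.57 (without SW48 resistant replicate 2) when single arrays were left out. Caco2 minus LIM1215 gave 1.47 for KRT7 (SE 0.509), with KRT7 near background in Caco2, and 0.86 without LIM1215 parental replicate 3 (adjusted p = 0.116). It also did not pass in the fit on those lines alone (adjusted p = 0.0809) or without LIM1215 resistant replicate 1 (0.0561) or 3 (0.105). The same held without Caco2 parental replicate 1 (0.111) or 2 (0.0516), or Caco2 resistant replicate 1 (0.0882) or 3 (0.103).

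For withdrawal minus parental cells, SW48 minus LIM1215 gave -1.67 for KRT7 (SE 0.509, adjusted p = 0.0321), 0.56 for KRT8 (SE 0.115) and 1.21 for KRT18 (SE 0.141). The KRT7 difference was -2.27 without LIM1215 parental replicate 3 (adjusted p = 0.000165). It did not pass in the fit on those lines alone (adjusted p = 0.0544) or with the replicate block (0.061). Nor did it pass without LIM1215 parental replicate 1 (0.112) or 2 (0.0997), or LIM1215 withdrawal replicate 1 (0.0755) or 2 (0.0584). The same held without SW48 parental replicate 1 (0.061) or 3 (0.0716), or any SW48 withdrawal replicate (0.0534 to 0.061). Caco2 minus LIM1215 gave 2.59 for KRT23 (SE 0.375), with KRT23 near background in LIM1215. SW48 minus Caco2 gave 0.48 for KRT8 (SE 0.115), 1.24 for KRT18 (SE 0.141) and -1.57 for KRT23 (SE 0.375), with KRT23 near background in SW48. Groups of 3 arrays were not tested for outlying arrays, so LIM1215 parental replicate 3 is described by its values alone.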

How the results depend on the processing

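Of the 16 within-line keratin changes that passed with a group above background, 186 of 192 alternative values kept their direction and their side of the threshold, 6 no longer passed and 0 reversed; all 6 were of KRT7 (SW48 resistant minus parental cells and LIM1215 withdrawal minus parental cells). Of the 21 that did not pass, 233 of 252 values kept both their direction and their side of the threshold. Another 3 passed, and 16 turned sign without passing. Quantile normalization gave 0.01 for KRT19 in resistant minus parental LIM1215 cells (-0.03 as reported), 0.00 for KRT19 and for KRT8 in withdrawal minus parental LIM1215 cells, -0.01 for KRT19 in withdrawal minus resistant LIM1215 cells, and in Caco2 -0.08 for KRT8 and -0.01 for KRT18 in resistant minus parental cells and 0.00 for KRT8 in withdrawal minus resistant cells. Leaving out arrays, KRT19 ranged from -0.11 to 0.11 (LIM1215 resistant minus parental), -0.05 to 0.17 (LIM1215 withdrawal minus parental) and -0.03 to 0.29 (SW48 withdrawal minus parental), KRT18 from -0.08 to 0.07 (Caco2 resistant minus parental) and -0.15 to 0.00 (Caco2 withdrawal minus resistant), and KRT8 from -0.03 to 0.01 (Caco2 withdrawal minus parental). Fits on the lines compared called 1 keratin in LIM1215 withdrawal minus parental cells (2 as reported) and 1 in Caco2 resistant minus parental cells (0 as reported). Trend and robust settings called 2 in Caco2 withdrawal minus resistant cells (1 as reported) and 2 in each Caco2 against LIM1215 contrast (1 as reported), and the filter on dim genes called 2 in that contrast for withdrawal minus parental cells. Leaving out arrays, counts ranged from 0 to 1 (LIM1215 resistant minus parental), 1 to 2 (LIM1215 withdrawal minus parental), 0 to 1 (Caco2 against LIM1215, resistant minus parental) and 1 to 2 (the same, withdrawal minus parental). In SW48 they ranged from 4 to 6 for resistant minus parental cells (6 as reported). For withdrawal minus resistant SW48 cells the range was 5 to 6 (5 as reported). Between SW48 and LIM1215 it was 5 to 6 (resistant minus parental) and 2 to 3 (withdrawal minus parental). Replicate numbers did not pair the arrays: over 27 same-numbered pairs, r of the deviations was -0.041 to 0.075, with 0 over 0.1. With the replicate block 12 of 15 keratin counts were as reported, and the Caco2 against LIM1215 count for resistant minus parental cells was 0 (KRT7, 1.47, adjusted p = 0.0745). The cause of these shifts was not tested. Fits on single lines called 1230 genes for LIM1215 resistant minus parental cells (1913 as reported), 2227 for LIM1215 withdrawal minus parental cells (3724) and 380 for SW48 withdrawal minus parental cells (722). Leaving out 1 array called 2304 (parental replicate 1) or 2260 (parental replicate 2) for LIM1215 withdrawal minus parental cells and, over all single arrays left out, 448 to 580 for SW48 withdrawal minus parental cells; for withdrawal minus parental cells between lines it called 1547 (without LIM1215 parental replicate 2) or 3863 (without replicate 3) for SW48 against LIM1215 (2356 as reported) and 3960 (without replicate 3) for Caco2 against LIM1215 (2365). Of 108 changes of other listed genes that passed with a group above background, 1215 of 1296 values still passed, 81 did not and 0 reversed. Of 18 differences between lines that passed, 304 of 324 values kept direction and side of the threshold, 20 no longer passed and 0 reversed. All 20 were of KRT7, in comparisons with LIM1215. The KRT7 difference between SW48 and LIM1215 in withdrawal minus parental cells was -1.67 with the replicate block too (adjusted p = 0.061). Background correction and a slide or scan block were not run. Genes below the negative controls' 95th percentile have no measured level.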

Other observations

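Of 12 other intermediate filament genes, 1 was higher and 2 were lower in resistant against parental Caco2 cells, where 12.9% of all genes passed higher and 14.5% lower, so the list's share is near that of all genes. They were LMNA, VIM and INA, a neuronal filament protein that was near background in both groups. VIM, the filament protein of mesenchymal cells, read 11.15, 11.14 and 11.21 in withdrawal, 9.51, 9.51 and 10.01 in resistant and 12.01, 11.96 and 11.86 in parental cells. It was 4.81-fold lower in resistant than in parental cells (-2.27, SE 0.262, adjusted p = 3.96e-07) and 2.81-fold higher in withdrawal than in resistant cells. LMNA, the lamin of differentiated nuclei, read 11.71, 11.58 and 11.82 in withdrawal, 12.75, 12.83 and 12.69 in resistant and 11.26, 11.65 and 11.76 in parental cells, a 2.30-fold rise in resistant cells (1.20, SE 0.111, adjusted p = 1.25e-08). Of the 4 desmosomal cadherins listed, DSC2 and DSG2 were lower in resistant than in parental Caco2 cells, DSC2 by 2.23-fold (-1.16, SE 0.135, adjusted p = 4.65e-07) and DSG2 by 2.11-fold (-1.07, SE 0.110, adjusted p = 5.66e-08), while PKP3 was 2.00-fold higher (1.00, SE 0.215, adjusted p = 0.000974). DSG3 and DSC3 were near background and differed by 0.08 and -0.50 (adjusted p = 0.888 and 0.286). Of 13 desmosome and plakin genes 1 rose and 2 fell there, again near the 27.4% of all genes that passed.

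The AP-2 factor TFAP2C was highest in withdrawal cells of Caco2 as of LIM1215. In Caco2 it read 8.27, 8.53 and 8.74 in withdrawal, 3.79, 3.47 and 2.88 in resistant and 6.63, 6.75 and 5.53 in parental cells, with resistant and parental cells near background (2.21 for withdrawal minus parental cells, SE 0.374, at least 1.69-fold, adjusted p = 0.000546). In LIM1215 the desmosome and plakin list gave 0 calls of 13 in resistant against parental cells in limma (3 at an unadjusted p under 0.05, and 1 lower without parental replicate 3), where 10.8% of all genes passed, and 14.7% without that replicate. It gave 2 higher and 1 lower in withdrawal against parental cells (3 and 2 without that replicate), where 21.1% of all genes passed, and 28.4% without it. There DST fell by 1.86 (SE 0.295, at least 1.96-fold lower, adjusted p = 0.000101) and by 2.05 without parental replicate 3. SPRR2A, a cornified envelope protein, read 7.95, 8.13 and 7.55 in withdrawal, 4.07, 4.65 and 4.13 in resistant and 6.66, 6.56 and 7.17 in parental LIM1215 cells, and was above background in withdrawal cells (1.08 against parental cells, adjusted p = 0.0184, and 1.27 without parental replicate 3). That difference did not pass without parental replicate 1 (adjusted p = 0.0735), parental replicate 2 (0.0876), withdrawal replicate 1 (0.0562) or withdrawal replicate 2 (0.0782).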
